A study of Mus musculus with 6 samples.

Results

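The BCL2 family genes described here were 10 mouse genes chosen by symbol, 3 that promote survival (Bcl2, Bcl2l1 and Mcl1) and 7 that promote death (Bax, Bak1, Bcl2l11, Bid, Bad, Bbc3 and Pmaip1). Of the 10, 9 had a probeset listed under that symbol alone, 1 each, among 19938 genes so measured, and Bax was not analysed here. The RNA came from lineage-negative, Kit-positive, Sca-1-positive (KSL) bone marrow cells of young adult wild-type FVB/nJ mice. The 3 control_vector samples received the lentivirus pCAD-IRES-GFP and the 3 HLX_vector samples received the same backbone with mouse Hlx, a homeobox transcription factor, written in the labels both as pCAD-IRES-GFP-Hlx and as pCAD-HLX-IRES-GFP. All 6 samples shared the exposure to polybrene at 8 µg/ml, a culture of 2 days in IMDM with FBS, mIL-3, mIL-6 and mSCF, and the sort for GFP, so every value is for infected, cytokine-stimulated cells. The series asks which genes change when HLX is overexpressed in such cells. No label ties a replicate number to a mouse or a culture, and the p-values below therefore reflect only how these samples varied, in part perhaps technically.

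Proteins of the BCL2 family decide whether the outer mitochondrial membrane stays intact. BCL2, BCL-XL (from Bcl2l1) and MCL1 hold the pore-forming effectors BAX and BAK in check, and BH3-only proteins such as BIM (from Bcl2l11), BID, BAD, PUMA (from Bbc3) and NOXA (from Pmaip1) release or activate the effectors. Once the membrane is permeable, cytochrome c reaches the cytosol and starts the caspase cascade. In haematopoietic stem cells MCL1 is required for survival, and cytokine signals through STAT5, AKT and FOXO factors are known to set the levels of several family members.

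Promoter sequences were taken from the RefSeq promoter table (GRCm38.p6) for the 2 genes whose HLX arrays all lay above the control arrays, Bcl2l1 and Bid, and for Bcl2l11, whose window holds the FOXO core letters. Each is the 250 bases before the most upstream annotated start, 5′ to 3′ on the strand of the gene, with motif matches in capitals. The window of Bcl2l1 is chr2:152831729-152831978 on the minus strand, that of Bid chr6:120916825-120917074 on the minus strand, and that of Bcl2l11 chr2:128125788-128126037 on the plus strand.
Bcl2l1: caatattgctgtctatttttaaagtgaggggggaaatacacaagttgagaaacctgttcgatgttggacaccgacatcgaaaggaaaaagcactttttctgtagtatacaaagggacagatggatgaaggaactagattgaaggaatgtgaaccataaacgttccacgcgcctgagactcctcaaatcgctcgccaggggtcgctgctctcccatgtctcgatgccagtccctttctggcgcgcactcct
Bid: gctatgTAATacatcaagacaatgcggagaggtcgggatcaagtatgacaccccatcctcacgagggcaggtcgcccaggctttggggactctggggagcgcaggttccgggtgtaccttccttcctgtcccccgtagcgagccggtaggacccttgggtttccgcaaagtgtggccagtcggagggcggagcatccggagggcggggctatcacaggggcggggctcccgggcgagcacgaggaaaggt
Bcl2l11: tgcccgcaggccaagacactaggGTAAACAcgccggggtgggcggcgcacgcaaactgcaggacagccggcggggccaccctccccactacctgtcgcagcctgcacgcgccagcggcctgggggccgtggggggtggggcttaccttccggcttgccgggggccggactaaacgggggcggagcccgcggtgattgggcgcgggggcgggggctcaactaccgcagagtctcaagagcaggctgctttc

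The motifs searched on both strands were the homeodomain core TAAT, the STAT core TTCNNNGAA and the FOXO core GTAAACA. No match overlapped another in the windows shown. The homeodomain core was present 244 bases before the start of Bid, with 0 matches of any motif in the window of Bcl2l1 shown. Bcl2l1 has 3 annotated starts, and the windows of the other two each held the homeodomain core, 43 and 168 bases before the start. Over the 9 members with a window, Bax included and Pmaip1 not used here, 3 had the homeodomain core at the most upstream start. The STAT core was in 0 of these 9 windows and the FOXO core in 1, that of Bcl2l11, 227 bases before its start. At a further annotated start of Bbc3, not its most upstream, the FOXO core lay 167 bases before the start. Of 32851 promoter windows in the table, cut to the same length, 54.9% held the homeodomain core, 7.02% the STAT core and 3.17% the FOXO core. That share is over all annotated starts, the members' counts are over 1 start per gene, and the difference was not tested. A match describes letters, not binding.

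Values are log2 expression levels made by the authors with RMA, so a difference of 1 is 2-fold. The 6 arrays were alike in level and shape, with medians of 6.32 to 6.40 and pairwise correlations of 0.980 to 0.987. Hlx checked the labels. Its log2 level was 6.99, 7.29 and 7.62 with the control vector and 10.75, 9.74 and 10.28 with the HLX vector, with an adjusted p from limma of 0.0782. Interferon response genes stood apart on both arrays numbered 1, where 10 measured genes had a mean log2 level of 7.79 (control) and 7.61 (HLX) against 6.49 to 6.75 on the other 4 arrays. The stem and progenitor marker Kit had log2 levels of 9.20 to 9.53 on control arrays and 9.31 to 9.59 on HLX arrays, and Ly6a, the gene of Sca-1, was not analysed here.

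No member passed the threshold of an adjusted p under 0.05 in limma, nor did any of the 19938 genes (0 of 9 and 0%). At an unadjusted p under 0.05 stood 2 members, Bcl2l1, higher with HLX, and Pmaip1, lower, where 4.80% of all genes did, 2.44% higher and 2.36% lower. Between vectors, arrays were fully separated in 3 members, Bcl2l1 and Bid above control and Pmaip1 below it, and in 9.19% of all genes, 4.34% above and 4.85% below. The members' count is too small to be read against these shares. The median absolute log2 difference was 0.24 among the 9 members and 0.090 over all genes, of which 14.4% exceeded the members' median. The members also varied more between replicates, with a median SD of 0.23 against 0.16 over all genes. Both comparisons are with a background not filtered for dim probesets, whose signals RMA compresses. The probesets of all 9 members lay above the median level, and no background of like level was drawn. With 3 arrays against 3, the exact permutation test cannot give a p below 0.1.

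Among the survival genes Bcl2l1 had the difference with the smallest p of all members. BCL-XL, its main product, blocks BAX and BAK and is best known in the red cell and platelet lineages. Its log2 level was 8.21, 8.08 and 8.22 on the control arrays and 8.42, 8.54 and 8.95 on the HLX arrays. Every HLX array lay above every control array, by 0.20 at the nearest, and HLX replicate 3 was the highest. Bcl2l1 was 1.38-fold higher with HLX (95% interval 1.08 to 1.76-fold), a log2 difference of 0.46 ± 0.15 (SE, n = 3 per group). The unadjusted p from limma was 0.0159 and the adjusted p 0.932, so it was not called, and the exact permutation test (2-sided) gave p = 0.1. Without HLX replicate 3 the difference was 0.31, and it was 0.59 without both arrays numbered 1 (a fit added once the data had been seen).

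Bcl2, the founding survival gene of the family, pointed the other way without a call. Log2 levels of Bcl2 were 8.35, 8.62 and 8.83 on control arrays and 8.03, 8.45 and 8.38 on HLX arrays. The groups overlapped, since control replicate 1 lay below HLX replicates 2 and 3, and HLX replicate 1 was the lowest of all. The mean was 1.25-fold lower with HLX (-0.32 ± 0.16 on the log2 scale, SE, n = 3 per group). The interval ran from 1.63-fold lower to 1.05-fold higher, and the unadjusted p from limma was 0.0907. Without HLX replicate 1 the difference was -0.19, and without control replicate 3 it was -0.20.

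Mcl1, the short-lived survival factor that stem cells depend on, was nearly level. It had log2 levels of 9.81, 9.66 and 9.60 with the control vector and 9.65, 9.78 and 9.65 with HLX. The groups overlapped almost fully, and the log2 difference was 0.0088 ± 0.10 (SE, n = 3 per group), with a sign that turned after a second quantile normalization or cyclic loess. Its interval, 0.855 to 1.18-fold, was the narrowest of the 9 members on the log2 scale.

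**Figure D1:**
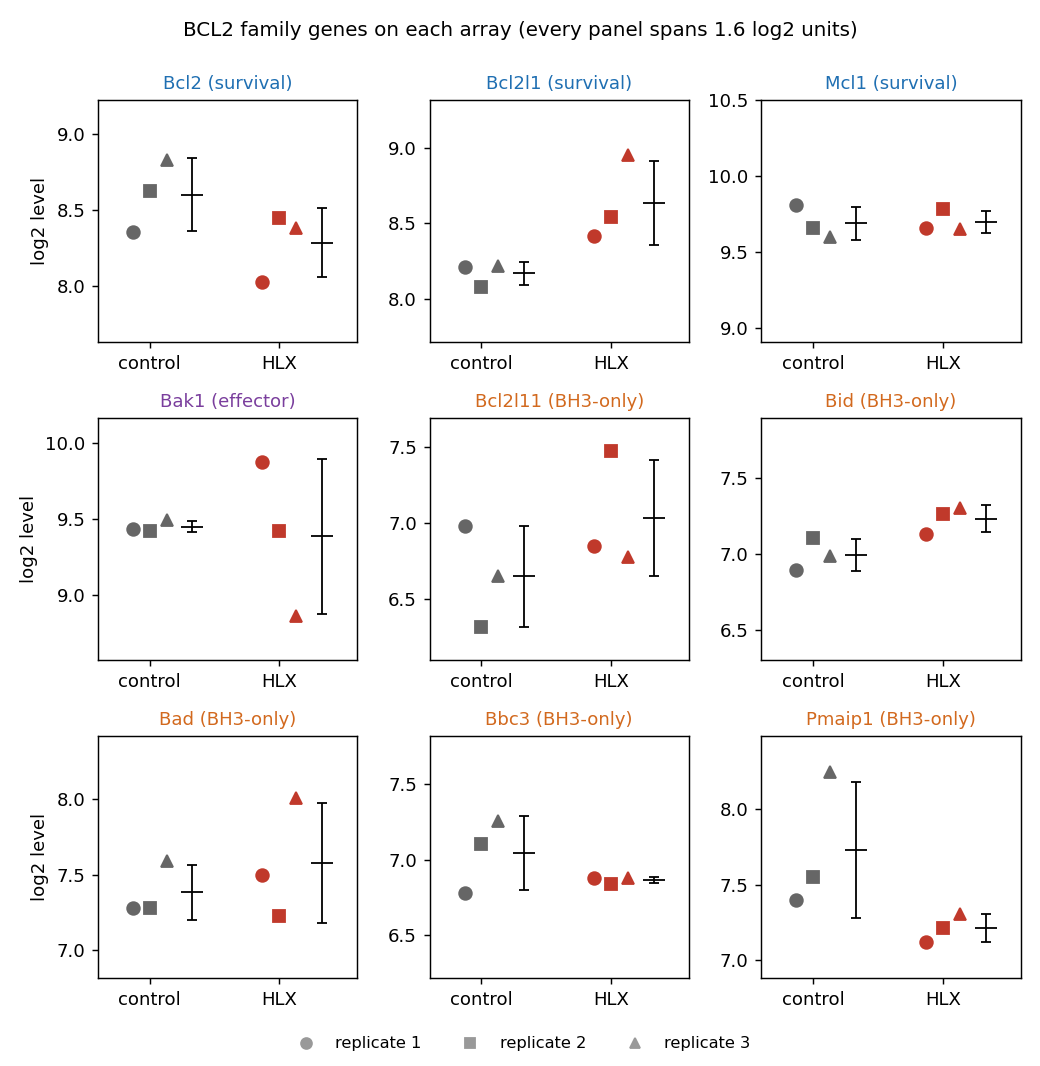
Log2 expression level of each measured BCL2 family gene on each array (y axis, log2 level; grey, control vector; red, HLX vector; symbols, replicate numbers), with the group mean and SD (n = 3) as a bar to the right. Bcl2l1 and Bid have all HLX points above the control points, Pmaip1 has them below, and Bak1 spreads widely on the HLX arrays alone.

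The effector Bak1, which forms pores in the outer mitochondrial membrane, differed little in its mean and much in its spread. Its log2 level was 9.44, 9.42 and 9.49 on the control arrays and 9.88, 9.42 and 8.86 on the HLX arrays. HLX replicate 1 was the highest of the 6 arrays and HLX replicate 3 the lowest. The SD was 0.037 among control arrays and 0.51 among HLX arrays, a contrast in spread that was not tested. The log2 difference was -0.063 ± 0.23 (SE, n = 3 per group, interval 0.654 to 1.40-fold), with an unadjusted p from limma of 0.795. It was 0.20 without HLX replicate 3 and -0.31 without HLX replicate 1, so its direction rests on single arrays.

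The BH3-only genes had differences of both signs, none of them called. Pmaip1, whose product NOXA binds and neutralises MCL1, had the largest difference of any member. Levels of Pmaip1 on the log2 scale were 7.40, 7.55 and 8.24 on control arrays and 7.12, 7.21 and 7.31 on HLX arrays. All HLX arrays lay below all control arrays, by 0.090 at the nearest, and control replicate 3 stood high. Pmaip1 was 1.43-fold lower with HLX (log2 difference -0.51 ± 0.21, SE, n = 3 per group, interval 1.01 to 2.02-fold lower). The unadjusted p from limma was 0.0448, the adjusted p rounded to 1, and the exact permutation p 0.1, so it was not called. Without control replicate 3 the difference was -0.26, with an unadjusted p from limma of 0.0738. Of the 6 fits with 1 array left out, 2 had an unadjusted p from limma under 0.05. The highest was 0.107, without HLX replicate 1.

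Bbc3 encodes PUMA, a BH3-only protein that binds all the survival proteins and is, like NOXA, a p53 target. Log2 levels of Bbc3 were 6.78, 7.10 and 7.25 on control arrays and 6.88, 6.84 and 6.88 on HLX arrays. The HLX arrays were nearly identical (SD 0.022) and lay within the range of the control arrays (SD 0.24). The log2 difference was -0.18 ± 0.13 (SE, n = 3 per group, interval 0.711 to 1.10-fold), with an unadjusted p from limma of 0.218. It was -0.31 without control replicate 1 and -0.075 without control replicate 3.

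Bid, which links death receptors to mitochondria once caspase-8 has cleaved it, was slightly higher on every HLX array. On the log2 scale Bid was at 6.90, 7.10 and 6.98 with the control vector and 7.13, 7.27 and 7.30 with HLX. The groups were separated by 0.026, less than the SD within either. Bid was 1.18-fold higher (interval 0.999 to 1.39-fold, log2 difference 0.24 ± 0.10, SE, n = 3), with an unadjusted p from limma of 0.0509 and an exact permutation p of 0.1. After median centring of the arrays the unadjusted p from limma was 0.0247 for a difference of 0.26, the smallest p over the settings run. In other settings that kept all arrays it reached 0.0941, and without control replicate 1 it was 0.152.

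Bcl2l11 encodes BIM, a strong activator of BAX and BAK that rises when cytokines are withdrawn. It had log2 levels of 6.98, 6.31 and 6.65 on control arrays and 6.85, 7.47 and 6.78 on HLX arrays. The groups overlapped, and HLX replicate 2 alone lay above all control arrays. The log2 difference was 0.39 ± 0.23 (SE, n = 3 per group, interval 0.897 to 1.90-fold), with an unadjusted p from limma of 0.138. It was 0.17 without HLX replicate 2, 0.22 without control replicate 2 and 0.64 without both arrays numbered 1.

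Bad encodes a BH3-only protein that is held inactive by phosphorylation in the presence of survival factors. Its log2 level was 7.28, 7.28 and 7.59 with the control vector and 7.49, 7.23 and 8.00 with HLX. The groups overlapped, with HLX replicate 3 the highest array and HLX replicate 2 the lowest. The log2 difference was 0.19 ± 0.20 (SE, n = 3 per group, interval 0.821 to 1.59-fold), with an unadjusted p from limma of 0.374. Without HLX replicate 3 it was -0.022.

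**Figure D2:**
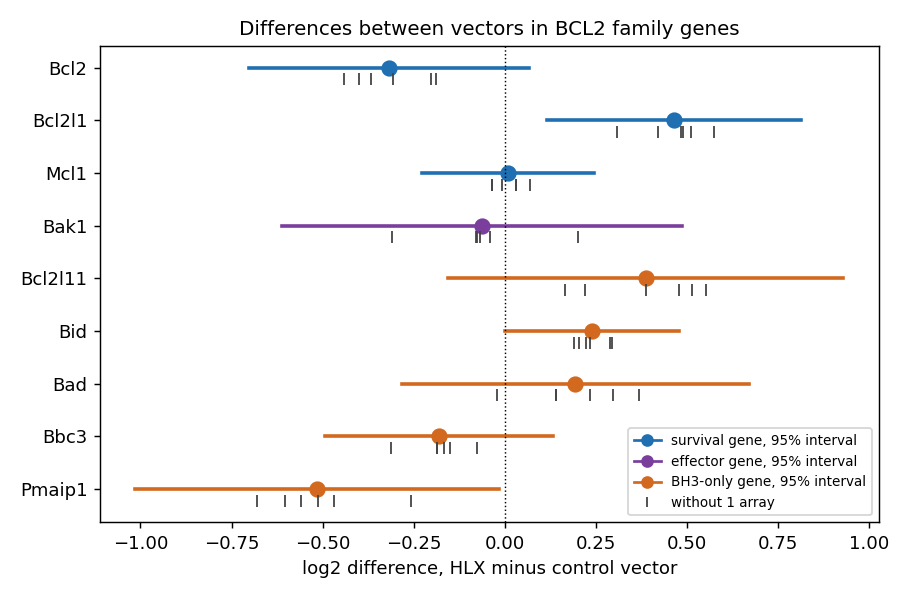
Log2 difference between HLX and control vector for each measured member (x axis, log2 units; dots, limma estimate from 3 arrays per group; lines, 95% intervals; ticks below, the 6 estimates with 1 array left out). The intervals of Bcl2l1 and Pmaip1 exclude 0 before adjustment for the 19938 genes tested, and the ticks of Mcl1, Bak1 and Bad fall on both sides of 0.

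Survival and death genes were set against each other by taking, on each array, the mean deviation of a class from the mean of each of its genes over the 6 arrays. This is a description and carries no test. For the 3 survival genes the deviation was -0.055, -0.059 and 0.037 on the control arrays and -0.15, 0.077 and 0.15 on the HLX arrays, which overlap. For the 6 death genes it was -0.086, -0.084 and 0.16 with the control vector and 0.012, 0.027 and -0.025 with HLX, inside the range of the control arrays. The shift between vectors was thus 0.052 for survival genes and 0.0098 for death genes.

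The difference of both classes, survival minus death, had a mean of -0.021 ± 0.085 (SD, n = 3) on control arrays and 0.021 ± 0.17 (SD, n = 3) on HLX arrays. Its shift of 0.042 was smaller than the SD within either group. HLX replicate 1 was the lowest array and HLX replicate 3 the highest, so the HLX arrays bracket the control arrays. Without HLX replicate 3 the shift was -0.034, and without both arrays numbered 1 it was 0.16. Near-zero class means arose from members of opposite sign, Bcl2l1 against Bcl2 among survival genes, and Bcl2l11, Bid and Bad against Pmaip1 and Bbc3 among death genes.

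**Figure D3:**
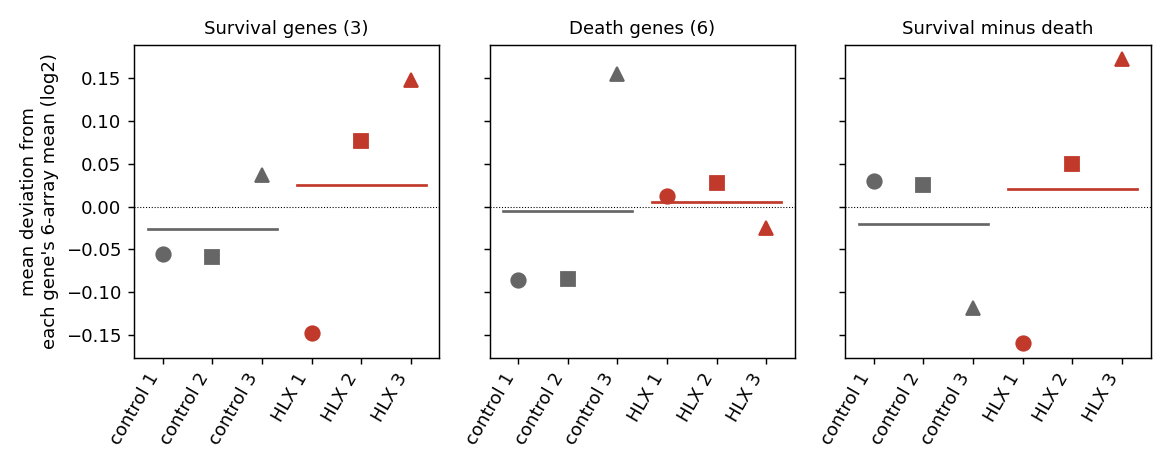
Mean deviation of the 3 survival genes, of the 6 death genes and of survival minus death on each array (y axis, log2 units from the 6-array mean of each gene; grey, control vector; red, HLX vector; lines, group means). In the right panel HLX replicates 1 and 3 lie at -0.16 and 0.17, outside the control arrays on both sides.

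No other gene of the pathway was called. Of 75 genes in 6 lists 67 were measured, 35 higher and 32 lower with HLX, and 0 reached an unadjusted p under 0.05 in limma (smallest 0.0730), where 4.80% of all genes did. That count of 0 was not stable, and it was 4 without both arrays numbered 1. The median absolute log2 difference of the 67 genes was 0.099, beside 0.090 over all genes and 0.24 over the members. Single genes of these lists differed by more than several members did. Of 14 other measured BCL2 family genes 9 were above 0 (median 0.016), with the mitophagy receptor genes Bnip3l at 0.24 ± 0.13 and Bnip3 at 0.21 ± 0.12 (log2 difference ± SE, n = 3 per group) and Bcl2l12 at -0.16 ± 0.13. With the probesets of each gene averaged, Bnip3 was at 0.39 ± 0.13 and Bnip3l at 0.16 ± 0.13, so their order depends on the probesets used. The Bcl2a1 genes, near-identical copies that encode the survival protein A1, were not analysed here.

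Downstream of the mitochondria, 3 of 12 measured apoptosome, caspase and released-factor genes were above 0 (median -0.082). These were the effector caspase gene Casp6 at 0.31 ± 0.19, the nuclease inhibitor gene Dffa at 0.26 ± 0.16 and the mitochondrial nuclease gene Endog at 0.34 ± 0.21 (log2 difference ± SE, n = 3 per group). Of 7 inhibitor of apoptosis (IAP) genes 4 were above 0 (median 0.0082), with the caspase inhibitor gene Xiap at 0.29 ± 0.18, Birc6 at -0.10 ± 0.089 and Naip5 at -0.086 ± 0.090. Of 9 death receptor pathway genes 7 were above 0 (median 0.061). The TNF receptor gene Tnfrsf1a had the smallest p of all 67, at -0.26 ± 0.12, beside Faf1 at 0.17 ± 0.17 and the ligand gene Fasl at 0.077 ± 0.10.

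Upstream of the family, 3 of 9 transcription factor genes were above 0 (median -0.11). Stat5b, whose product relays cytokine signals to Bcl2l1, was at -0.36 ± 0.19, the stress factor gene Ddit3 at -0.20 ± 0.12 and E2f1 at 0.17 ± 0.13 (log2 difference ± SE, n = 3 per group). Of 16 genes for regulators of the proteins 9 were above 0 (median 0.016), with the mitochondrial channel gene Vdac3 at 0.15 ± 0.097, the co-chaperone gene Bag1 at 0.12 ± 0.086 and the kinase gene Gsk3b at -0.20 ± 0.17. Groups did not overlap in 3 of the 67 genes, Birc6 below control and Vdac3 and Bag1 above it, and in 9.19% of all genes.

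**Figure D4:**
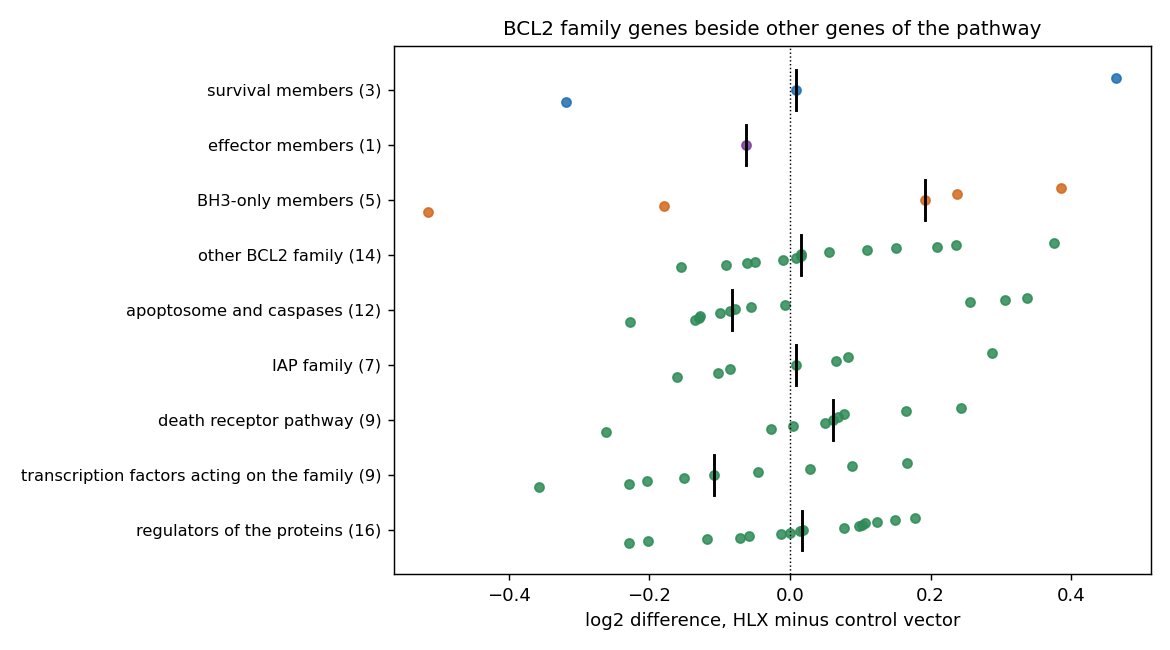
Log2 difference between HLX and control vector (x axis, log2 units) for every measured gene of the 3 member classes and of 6 further pathway lists, with the number measured in brackets; the black bar is the median of the list. The members Bcl2l1 and Pmaip1 lie farthest from 0, and the medians of the 6 further lists lie between -0.11 and 0.061.

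Markers of some cell types lay apart between vectors beside these values, without a call. Of 7 measured stem and progenitor markers 6 were lower with HLX, and their mean log2 level was 8.44 to 8.50 on control arrays and 8.11 to 8.34 on HLX arrays. Most of that came from the cytokine receptor gene Flt3 (log2 difference -0.68 ± 0.16, SE, n = 3) and the transcription factor gene Mecom (-0.81 ± 0.21), whose groups did not overlap. The other 4 lower markers were at -0.17 to -0.044 with overlapping groups, and Kit was at 0.088. Of 8 granulocyte and monocyte markers 5 were higher, with a mean level of 5.51 to 5.56 on control arrays and 5.68 to 5.97 on HLX arrays. That difference came mainly from Csf1r (1.36 ± 0.53) and the integrin gene Itgam (0.89 ± 0.22), with S100a8, S100a9 and Ngp at 0.015 to 0.17. The other markers of this list, Ly6g (-0.15), Ltf (-0.093) and Camp (-0.19), lay on all HLX arrays below all control arrays, as 4.85% of all genes did. Their gaps were small, at 0.0145, 0.0031 and 0.048, with mean log2 levels between 4.76 and 5.99.

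Of these markers Csf1r, the receptor gene of monocytes, had log2 levels of 6.28, 6.48 and 6.37 on control arrays and 6.49, 7.80 and 8.92 on HLX arrays. HLX replicate 3 was highest for both Csf1r and Bcl2l1. Itgam ran the other way over the HLX arrays, at 7.24, 6.91 and 6.72, with replicate 3 the lowest of these. The part of such markers in the Bcl2l1 and Pmaip1 values was not tested. In bulk RNA, fewer cells of a type and less RNA per cell cannot be told apart.

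B cell markers had a mean log2 level of 4.96 to 5.09 on control arrays and 4.85 to 5.05 on HLX arrays, and T cell markers of 5.57 to 5.74 in both groups. Stromal and endothelial markers were at 5.81 to 5.96 and 5.77 to 5.92. Erythroid markers, of which 2 of 5 were measured, were at 6.44 to 6.48 with the control vector and 6.14 to 6.43 with HLX, where every HLX mean lay below every control mean. Mast cell and basophil markers were at 4.90 to 5.81 on control arrays and 4.77 to 4.97 on HLX arrays, with control replicate 1 the highest. Of these markers 3 were lower and 2 higher with HLX. The largest differences were those of Cpa3 (-0.99 ± 0.61, SE, n = 3) and Mcpt8 (-0.72 ± 0.36), without a call. Cpa3 was at 7.47 on control replicate 1 and at 4.99 and 5.10 on the other control arrays. Megakaryocyte markers were at 7.28 to 8.00 and 7.59 to 7.60, and the narrow range on HLX arrays hid opposite values of single genes. Pf4 was at 9.62, 9.42 and 8.26 on the HLX arrays and Itga2b at 7.32, 7.85 and 8.34, with HLX replicate 3 again the highest for Itga2b. The part of these genes in the Bcl2l1 value was not tested either.

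The genes whose pattern over the 6 arrays was most like that of Bcl2l1 were Ppm1m, a protein phosphatase gene (r = 0.996), Rbm3, a cold-inducible RNA-binding protein gene (r = 0.996), and Smim11 (r = 0.991). They were the nearest of 17075 candidates, of which 146 had r above 0.9. That count was not tested, and with only 6 arrays the ranking is a description alone. Their log2 differences between vectors were 0.43 ± 0.15, 0.18 ± 0.098 and 0.21 ± 0.10 (SE, n = 3 per group), and none was called.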

How the data were processed

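Gene expression was measured on 6 Affymetrix arrays, from 3 ng of RNA of 5000 to 10000 sorted cells amplified with a NuGEN whole-transcriptome kit, per the labels' protocols. The deposited values are log2 levels per probeset, which the authors computed with Affymetrix Power Tools (RMA) per the submitters' processing notes. RMA removes differences common to most probesets and compresses weak signals. Their range, about that of a log2 scale, gave the unit. The genome build behind the probesets is not stated in the sources used here. No depth exists for arrays, and their number, 3 per group, limits the precision.

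Of 35556 probesets, 21789 had 1 gene symbol in the platform annotation, 1621 had several and 12146 were unlisted there. Per gene the probeset brightest by its mean over all 6 arrays was kept, which left 19938 genes without a filter on dim probesets. The comparison was fitted over all genes with limma 3.58.1 (lmFit and eBayes, 2-sided) in R 4.3.3 with Benjamini-Hochberg adjustment, at 0.05. SE and intervals (95%) are moderated by eBayes. The exact permutation tests used all splits of 3 against 3. The code was tested on simulated data. Python 3.11.15 with matplotlib 3.10.9 drew the figures.

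Members and lists were chosen with earlier results of these data known. Named were Hlx, all members, up to 3 genes of smallest p per pathway list (the other genes named are markers or lack a value), and the 3 genes most like the member of smallest p, predicted genes and small RNAs aside. The alternatives were a filter, 3 normalizations, a trended and robust prior, array weights, averaged probesets, a replicate block and leaving out arrays.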

Additional observations from a re-analysis of the deposited data

How the results depend on the processing

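No member and no other pathway gene was called at an adjusted p under 0.05 in any of the 14 other settings chosen at the outset or without both arrays numbered 1. Over all genes 1, Hlx (log2 difference 2.95, adjusted p 0.0377), was called with the trended and robust prior of limma. At an unadjusted p under 0.05 stood 606 genes among probesets above the median level, where fewer were tested. Bcl2l1, Bcl2, Bcl2l11, Bid, Bbc3 and Pmaip1 kept their direction in all alternatives run. Mcl1 turned after quantile normalization (-0.032) and cyclic loess (-0.0055) and ran from -0.036 to 0.069 with 1 array left out. Bak1 turned with array weights (0.081) and ran from -0.31 to 0.20 with 1 array left out, and Bad from -0.022 to 0.37. The cause was not tested. The number of members at an unadjusted p under 0.05 ran from 1 to 4 with 1 array left out. It was 4 without control replicate 1 (Bcl2, Bcl2l1, Bbc3 and Pmaip1) and 1 (Bcl2l1) without control replicate 3 or HLX replicate 2 or 3. Bcl2l1 missed that threshold without control replicate 2 (p from limma 0.0513). After median centring Pmaip1 missed it too (p from limma 0.0503), while Bid passed. Without both arrays numbered 1 it was met by 3 members, Bcl2l1, Bcl2l11 and Pmaip1. Other pathway genes at that threshold, 0 in the main fit, moved too. There was 1 after quantile normalization or cyclic loess, 1 after averaging of probesets (Bnip3), and there were 3 with the replicate block. With 1 array left out they ran from 0 to 3, and without both arrays numbered 1 there were 4.

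Whether the replicate numbers pair the samples was not settled by the check made. Same-numbered arrays correlated in their deviations at 0.20, 0.0085 and 0.14. Control replicates 1 and 3 correlated best with the HLX array of their own number. Control replicate 2 correlated best with HLX replicate 3 (0.11). With the replicate block 1205 genes stood at an unadjusted p under 0.05 against 958 without, 3 members did (Bcl2, Bcl2l1 and Pmaip1), and 0 genes were called.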
